A study of Mus musculus with 10 samples.

Results

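The 8 genes described here encode the parts of a neuronal potassium channel complex: the KChIP proteins Kcnip1, Kcnip2, Kcnip3 and Kcnip4, the Kv4 pore subunits Kcnd2 and Kcnd3, and the accessory membrane proteins Dpp6 and Dpp10. They were taken by gene symbol from 19938 genes that the array annotation names without ambiguity, and each gene was represented by its transcript cluster, the set of probes summarised as 1 value, with the highest mean over the 10 arrays. Only Dpp6 had another transcript cluster to choose from. RNA came from the whole hippocampus of 5 Tg(Dyrk1a) male mice of 16 weeks, which carry an extra copy of Dyrk1a on a bacterial artificial chromosome, and of 5 wild-type male littermates of the same age. The sources describe no restriction of the transgene to a cell type. The labels give the background as C57BL/6N, while the study's methods name C57BL/6J for this line. Every mouse gave 1 array. The 8 genes were grouped with the Kcnip1 difference already known from these arrays, so that difference is a description and nothing below rests on it.

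Kv4 subunits form the pore of the channel that carries the fast, transient A-type potassium current of neuronal cell bodies and dendrites, where it dampens the spread of action potentials into the dendritic tree of hippocampal pyramidal cells. KChIPs are cytosolic calcium sensors with EF-hands that bind the amino terminus of Kv4, carry it to the cell surface and slow its inactivation. DPP6 and DPP10 are relatives of the protease dipeptidyl peptidase 4 that have lost the enzymatic activity; they span the membrane beside Kv4 and speed up its opening and closing. In the hippocampus KChIP1 is known mainly from GABAergic interneurons and Kv4.2, the product of Kcnd2, from pyramidal and granule cells.

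All 8 genes matched RefSeq windows of 250 bases before and 50 bases after a transcription start in GRCm38.p6, 15 windows in all. Kcnip1 has 3 such starts, far apart on the minus strand of chromosome 11, while the array gives the gene a single value, which does not separate transcripts by their start. The 250 bases before each of these starts are shown, with those before the only listed start of Kcnip2 and of Dpp10, since these are the genes that the results below turn on; capitals mark CG dinucleotides.
Kcnip1 start 1, chr11:33993194-33993443, minus strand: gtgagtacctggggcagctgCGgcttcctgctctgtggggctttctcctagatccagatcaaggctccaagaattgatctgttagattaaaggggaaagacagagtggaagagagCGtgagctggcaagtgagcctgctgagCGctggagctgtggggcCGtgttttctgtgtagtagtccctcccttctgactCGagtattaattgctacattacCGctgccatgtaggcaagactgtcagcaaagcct
Kcnip1 start 2, chr11:33843687-33843936, minus strand: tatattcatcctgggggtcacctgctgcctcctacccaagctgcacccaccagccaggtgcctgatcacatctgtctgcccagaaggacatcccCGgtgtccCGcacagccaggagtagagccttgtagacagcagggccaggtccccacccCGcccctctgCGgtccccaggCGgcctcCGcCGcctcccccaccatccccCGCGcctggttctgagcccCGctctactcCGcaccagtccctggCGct
Kcnip1 start 3, chr11:33680683-33680932, minus strand: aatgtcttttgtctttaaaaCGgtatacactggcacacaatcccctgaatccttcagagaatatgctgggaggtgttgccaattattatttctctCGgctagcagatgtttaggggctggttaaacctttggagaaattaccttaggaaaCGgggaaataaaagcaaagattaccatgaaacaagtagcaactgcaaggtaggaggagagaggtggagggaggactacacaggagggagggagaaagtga
Kcnip2, chr19:45816064-45816313, minus strand: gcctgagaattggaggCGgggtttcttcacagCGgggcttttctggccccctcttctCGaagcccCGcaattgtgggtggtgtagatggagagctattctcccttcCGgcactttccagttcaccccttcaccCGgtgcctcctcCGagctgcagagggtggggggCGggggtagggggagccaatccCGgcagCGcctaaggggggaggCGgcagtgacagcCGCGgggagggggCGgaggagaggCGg
Dpp10, chr1:124045560-124045809, minus strand: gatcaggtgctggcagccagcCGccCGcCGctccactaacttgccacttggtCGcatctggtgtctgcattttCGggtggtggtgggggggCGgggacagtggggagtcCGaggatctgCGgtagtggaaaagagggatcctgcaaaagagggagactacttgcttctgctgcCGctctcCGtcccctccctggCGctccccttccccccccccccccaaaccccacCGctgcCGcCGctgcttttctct
The RefSeq gene models end at 33993348 for Kcnip1, 45816422 for Kcnip2 and 124845815 for Dpp10. The first Kcnip1 stretch thus lies partly inside a longer transcript of its gene. Those of Kcnip2 and Dpp10 lie wholly inside one, so these listed starts are not the outermost starts of the genes. The 300-base windows of the 3 Kcnip1 starts held 7, 16 and 4 CG dinucleotides, against 18 for Kcnip2, 21 for Dpp10 and a median of 7 over all 32851 windows. The start that is rich in CG, start 2, is therefore the one most like these listed starts of Kcnip2 and Dpp10 in base composition. The cAMP response element TGACGTCA was searched for on both strands and was in 0 of the 15 windows, and in 1.79% of all windows. The TATA sequence TATAAA, searched for likewise, was in 1 of the 15, at the first listed start of Dpp6, and in 13.6% of all windows. These are matches of letters in short windows only.

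The transgene was visible in the arrays. The brighter of the Dyrk1a transcript clusters (10437136) stood at 11.65 ± 0.02 in Tg(Dyrk1a) mice and at 11.18 ± 0.06 in wild-type mice on the log2 scale (SD, n = 5 each), with a limma adjusted p of 0.000138. The dimmer one (10437134) stood at 8.94 ± 0.09 in Tg(Dyrk1a) and 8.78 ± 0.07 in wild-type mice (SD, n = 5 each). Its groups did not overlap, but its limma adjusted p was 0.947. Array medians lay between 6.57 and 6.66, any pair of arrays correlated at 0.996 to 0.999, and no batch was given in the labels. Markers of the choroid plexus, a neighbouring tissue, were high in 2 Tg(Dyrk1a) arrays, replicates 2 and 4, and in wild type replicate 5. Of the hippocampal marker lists 13 of 13 dentate granule and 14 of 15 pyramidal cell genes were measured, with the dentate gene C1ql2 at 9.77 in Tg(Dyrk1a) and 9.64 in wild-type mice. In whole tissue, fewer cells of a type and less RNA per cell cannot be told apart. Log2 values of different genes are not compared with each other here, because probes differ in brightness.

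None of the 8 channel genes passed the test over all transcript clusters. By limma, 0 of the 8 had an adjusted p under 0.05, where 0.00854% of the 23410 annotated transcript clusters did. With unadjusted limma p-values under 0.05 the 8 genes gave 2, beside 4.93% of all transcript clusters: Kcnip1 was higher in Tg(Dyrk1a), like 2.99% of all, and Dpp10 was lower, like 1.94% of all. The rank method that the study used (FCROS), rebuilt from its description, also picked 2, again Kcnip1 and Dpp10, beside 4.83%. The groups did not overlap for 1 of the 8, Kcnip1, against 0.807% of all transcript clusters, or 0.534% with Tg(Dyrk1a) the higher. Kcnip1 is in the counts by unadjusted p, by rank method and by overlap. Its difference was known when the genes were grouped, so these counts describe the family and do not test it. The median log2 fold change of the 8 genes was 0.02, and their median absolute log2 fold change was 0.03, the same as the 0.03 over all transcript clusters. There were 5 genes with higher and 3 with lower means in Tg(Dyrk1a), where 50.9% of all transcript clusters were higher.

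**Figure D1:**
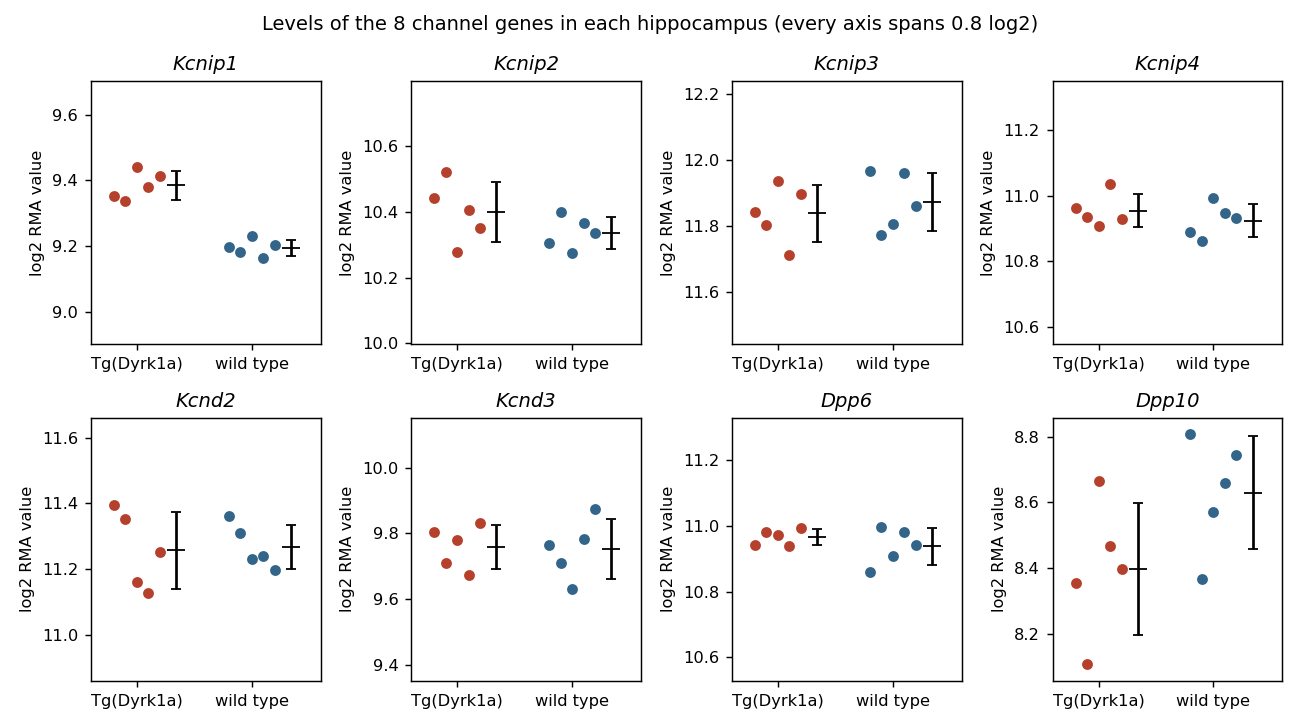
Log2 RMA values (vertical axes, each panel with its own position but the same span) of the 8 channel genes in Tg(Dyrk1a) and wild-type hippocampus, 1 point per mouse in order of replicate number, and bars at the mean with the SD over 5 mice. Kcnip1 is the panel in which all Tg(Dyrk1a) points, 9.34 to 9.44, lie above all wild-type points, 9.16 to 9.23; Dpp10 shows the widest scatter.

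Kcnip1, the calcium sensor known from interneurons, had the clearest separation of the family. Its transcript cluster (10385096, chromosome 11, gene from 33629339 to 33993348 in GRCm38.p6) read 9.35, 9.34, 9.44, 9.38 and 9.41 in Tg(Dyrk1a) replicates 1 to 5, against 9.20, 9.18, 9.23, 9.16 and 9.20 in wild type replicates 1 to 5. The lowest Tg(Dyrk1a) array was thus above the highest wild-type array. The log2 fold change was 0.19 ± 0.03 (SE), which is 1.14-fold (95% interval 1.09 to 1.19), and the limma adjusted p was 0.191. Only 0.585% of transcript clusters had a larger absolute fold change. Its spread was among the smallest on the array, with a pooled SD of 0.0352 that only 6.2% of transcript clusters undercut. The size of the difference was therefore modest and its separation came with little scatter among mice.

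The Kcnip1 difference lay between 0.18 and 0.21 on the log2 scale in 21 refits of limma, of which 4 (another filter, all rows, another variance model and the replicate block) cannot move it by construction. Its adjusted p lay between 0.0369 and 0.9995, and it was called once, with array weights (0.21 ± 0.03 SE, limma adjusted p = 0.0369). The fit with array weights called 5 of 23410 transcript clusters. That fit gave Tg(Dyrk1a) replicates 3 and 5, the pair with the highest Kcnip1, weights of 1.6 and 1.75, and the other Tg(Dyrk1a) arrays weights of 0.642 to 0.652. On the 7 arrays low in choroid plexus markers it was 0.21 ± 0.04 (SE). Markers of GABAergic interneurons differed between the genotypes in the same direction: 18 of 20 measured genes had higher means in Tg(Dyrk1a). Of these, 6 were at an unadjusted limma p under 0.05 and 0 after adjustment. The median log2 fold change of the list was 0.11. The mean score of that list ran from -0.01 to 0.07 over Tg(Dyrk1a) arrays and from -0.09 to 0.02 over wild-type arrays; RMA values have no zero, so no marker can be called absent. The smallest limma p of the list were those of Slc17a8 and Gad2. Slc17a8, the vesicular glutamate transporter of some interneurons, was at 0.20 ± 0.03 (SE, limma adjusted p = 0.254). Gad2, a GABA-synthesising enzyme, was at 0.14 ± 0.04 (SE, limma adjusted p = 0.947). Gad1, also a GABA-synthesising enzyme, was at 0.03 ± 0.04 (SE), Dlx1 at 0.01 ± 0.04 (SE) and Lhx6 at 0.03 ± 0.06 (SE). Pvalb (-0.06 ± 0.05 SE) and Calb2 (-0.14 ± 0.18 SE) had lower means. Other marker lists differed as well: 15 of 16 meninges genes were higher in Tg(Dyrk1a) (median 0.20, 4 at an unadjusted limma p under 0.05), 8 of 9 endothelial genes were higher (median 0.08), and 14 of 15 thalamus genes were lower (median -0.10), with 0 of these genes past the adjusted threshold. Wild type replicate 5 stood apart in the thalamus score, at 0.45, where the Tg(Dyrk1a) arrays ran from -0.09 to -0.03. With choroid plexus, meninges and thalamus markers in the model the Kcnip1 difference was 0.20 ± 0.05 (SE; limma adjusted p = 0.9995). With the interneuron score as a covariate the Kcnip1 difference was 0.18 ± 0.05 (SE, limma adjusted p = 0.488). That covariate was chosen after the data were seen. The score itself differs between the genotypes, so this fit cannot tell the score from the genotype. Within a genotype, Kcnip1 and the interneuron score had r = 0.10 and rho = 0.05 over 10 arrays (exact permutation p = 0.765 and 0.892; 0.957 and 0.941 after adjustment over 80 relations), and r = -0.45 without the 2 arrays farthest from the median of Kcnip1.

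Kcnip2, a KChIP known for shaping the transient outward current of the heart and expressed in pyramidal cells, did not separate the genotypes. Its values were 10.44, 10.52, 10.28, 10.41 and 10.35 in Tg(Dyrk1a), against 10.30, 10.40, 10.27, 10.37 and 10.33 in wild-type mice. Tg(Dyrk1a) replicate 3 lay among the lowest of all arrays and replicate 2 was the highest. The log2 fold change was 0.06 ± 0.05 (SE), with an interval of 0.977 to 1.12-fold and a limma adjusted p of 0.949.

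Kcnip3 encodes a KChIP that is also known as DREAM, a repressor of prodynorphin transcription, and as calsenilin, a partner of presenilins. It read 11.84, 11.80, 11.94, 11.71 and 11.90 in Tg(Dyrk1a), against 11.97, 11.77, 11.81, 11.96 and 11.86 in wild-type mice. The groups overlapped almost fully, with a log2 fold change of -0.04 ± 0.05 (SE; 0.904 to 1.05-fold, limma adjusted p = 0.971). Its sign turned on the 7 arrays low in choroid plexus markers, to 0.01 ± 0.06 (SE). Kcnip4, whose splice forms include one that suppresses Kv4 inactivation, stood at 10.96, 10.93, 10.91, 11.04 and 10.93 in Tg(Dyrk1a), against 10.89, 10.86, 10.99, 10.95 and 10.93 in wild-type mice. That is a log2 fold change of 0.03 ± 0.04 (SE), an interval of 0.967 to 1.08-fold and a limma adjusted p of 0.969. Whole-gene transcript clusters do not separate splice forms.

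The pore subunits gave the smallest differences of the family in the fit on all 10 arrays, and that of Kcnd3 moved with the processing. Kcnd2, the Kv4.2 gene, read 11.39, 11.35, 11.16, 11.13 and 11.25 in Tg(Dyrk1a), against 11.36, 11.31, 11.23, 11.24 and 11.20 in wild-type mice. The log2 fold change was -0.01 ± 0.05 (SE; limma adjusted p = 0.990). The Tg(Dyrk1a) arrays spread more widely (SD 0.12) than the wild-type arrays (SD 0.07) and took in their whole range. Kcnd3, the Kv4.3 gene, read 9.81, 9.71, 9.78, 9.67 and 9.83 in Tg(Dyrk1a), against 9.77, 9.71, 9.63, 9.78 and 9.87 in wild-type mice. The log2 fold change was 0.01 ± 0.05 (SE; limma adjusted p = 0.994). The 95% intervals ran from 0.915 to 1.08-fold for Kcnd2 and from 0.936 to 1.08-fold for Kcnd3. On the 7 arrays low in choroid plexus markers the log2 fold change of Kcnd3 was 0.08 ± 0.05 (SE; limma adjusted p = 0.878), and with the interneuron score as a covariate it was -0.12 ± 0.06 (SE; limma adjusted p = 0.949). That of Kcnd2 was 0.05 ± 0.08 (SE) with the interneuron score and -0.05 ± 0.06 (SE) with the dentate score.

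Of the membrane partners, Dpp6 was the steadier. It read 10.94, 10.98, 10.97, 10.94 and 10.99 in Tg(Dyrk1a), against 10.86, 11.00, 10.91, 10.98 and 10.94 in wild-type mice. All 5 Tg(Dyrk1a) arrays lay above the wild-type mean, but within the range of the wild-type arrays. The log2 fold change was 0.03 ± 0.03 (SE; 0.970 to 1.07-fold, limma adjusted p = 0.969). Its sign turned to -0.0031 with covariates for choroid plexus, meninges and thalamus markers. The dimmer Dpp6 transcript cluster (10520351) was at 5.65 ± 0.11 in Tg(Dyrk1a) and 5.66 ± 0.08 in wild-type mice (SD, n = 5 each). It did not separate the genotypes either (limma adjusted p = 0.992), but it lay below all array medians (6.57 to 6.66), where a difference could be missed.

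Dpp10 had the largest difference in size and the widest scatter. It read 8.35, 8.11, 8.66, 8.47 and 8.40 in Tg(Dyrk1a), against 8.81, 8.37, 8.57, 8.66 and 8.74 in wild-type mice. The groups overlapped: Tg(Dyrk1a) replicate 3 exceeded the wild-type mean, and wild type replicate 2 lay below the Tg(Dyrk1a) mean. The log2 fold change was -0.23 ± 0.10 (SE), which is 0.852-fold (95% interval 0.735 to 0.987), and the limma adjusted p was 0.947. Its pooled SD of 0.187 was larger than that of 98.1% of transcript clusters, and 0.286% of them had a larger absolute fold change.

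**Figure D2:**
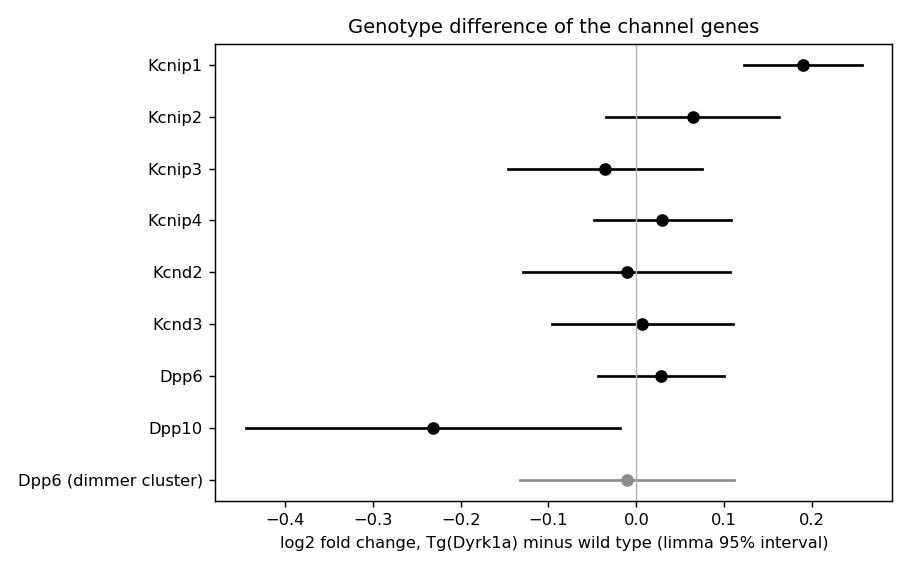
Differences in log2 value between Tg(Dyrk1a) and wild type (horizontal axis; above 0 is higher in Tg(Dyrk1a)) for the 8 channel genes and of the dimmer Dpp6 transcript cluster; points are limma estimates from 5 mice per genotype and bars are 95% intervals before any adjustment for the number of genes tested. Kcnip1 at 0.19 and Dpp10 at -0.23 have intervals that leave out 0, and the interval of Dpp10 is the widest.

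The Dpp10 difference moved with dentate granule cell markers and with the arrays used. In the dentate list 12 of 13 genes had higher means in Tg(Dyrk1a), 3 of them at an unadjusted limma p under 0.05 and 0 after adjustment, and the median log2 fold change was 0.10. The list score ran from -0.08 to 0.20 over Tg(Dyrk1a) arrays and from -0.17 to 0.05 over wild-type arrays. Within a genotype Dpp10 and this score had r = -0.86 and rho = -0.81 over 10 arrays (exact permutation p = 0.00785 and 0.0161; 0.196 and 0.324 after adjustment over 80 relations), and r = -0.66 without the 2 arrays farthest from the median of Dpp10. With the dentate score as a covariate the log2 fold change of Dpp10 was -0.05 ± 0.07 (SE), and with the interneuron score it was -0.48 ± 0.12 (SE; limma adjusted p = 0.469). On the 7 arrays low in choroid plexus markers it was -0.13 ± 0.10 (SE). Both scores differ between the genotypes themselves, and these 2 covariates were chosen after the data were seen.

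**Figure D3:**
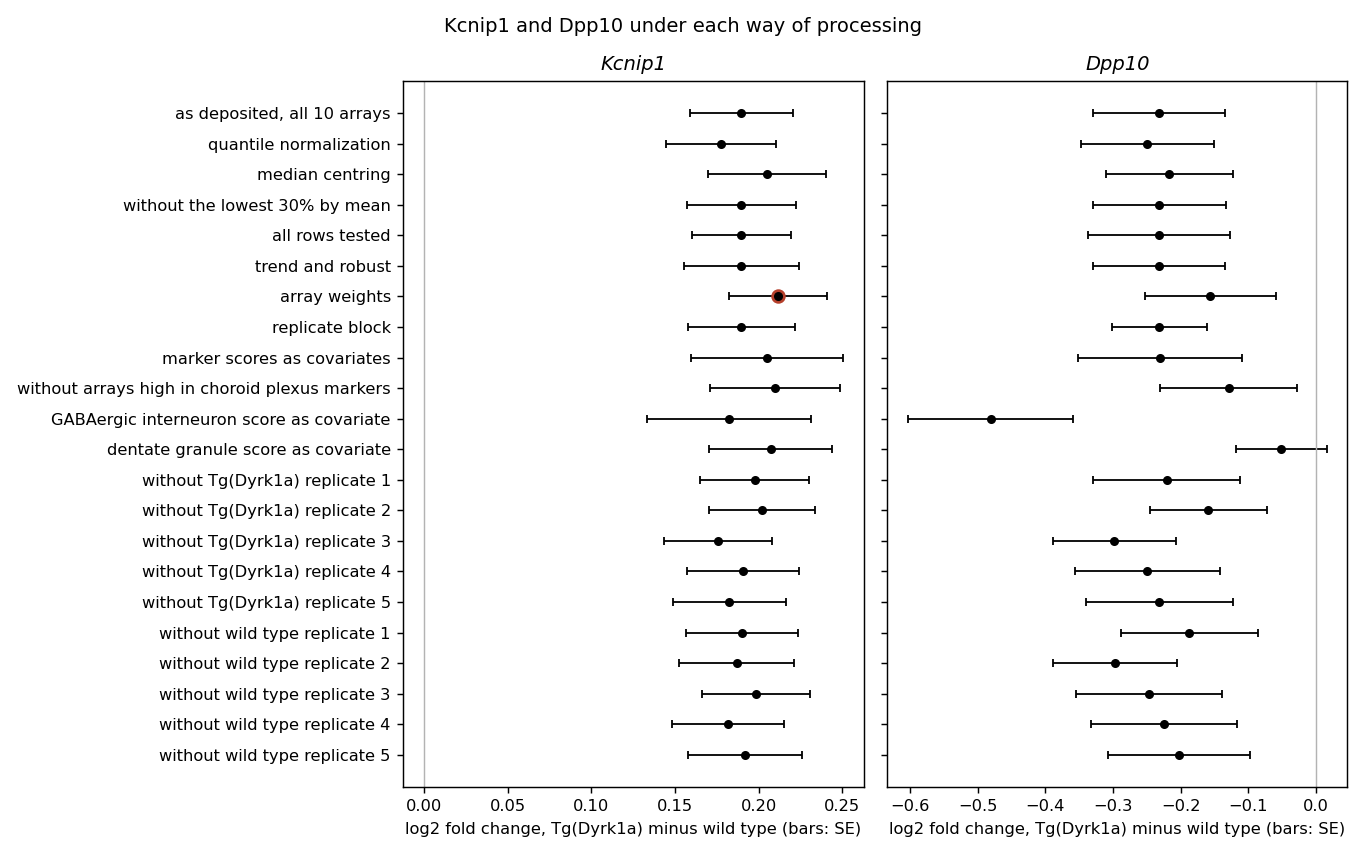
Differences in log2 value between Tg(Dyrk1a) and wild type (horizontal axes, above 0 is higher in Tg(Dyrk1a), a separate scale for each gene), of Kcnip1 and Dpp10 under each way of processing (rows), with bars for the limma SE; a red ring marks the fit with an adjusted p under 0.05. Kcnip1 stays between 0.18 and 0.21 throughout, whereas Dpp10 runs from -0.48 with the interneuron score as a covariate to -0.05 with the dentate score.

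Among mice of the same genotype, Kcnip1 and Kcnip2 varied in opposite directions. After the mean of its genotype was subtracted from every value, they had r = -0.94 and rho = -0.94 over 10 arrays (exact permutation within genotype, p = 0.000972 and 0.00132; 0.0272 and 0.0369 after adjustment over the 28 pairs of the 8 genes). The r was -0.98 over the 5 Tg(Dyrk1a) arrays and -0.79 over the 5 wild-type arrays, and without the 2 arrays farthest from the median of Kcnip1 it was -0.86. In Tg(Dyrk1a), replicate 2 had the lowest Kcnip1 and the highest Kcnip2, and replicate 3 the highest Kcnip1 and the lowest Kcnip2. In wild type, replicate 3 likewise had the highest Kcnip1 and the lowest Kcnip2, but the lowest Kcnip1 was in replicate 4 and the highest Kcnip2 in replicate 2. Tg(Dyrk1a) replicates 2 and 3 were also the highest and lowest of their genotype in choroid plexus score (1.12 and -0.65) and dentate score (0.20 and -0.08). Wild type replicate 3 was at neither end of its genotype in these scores (-0.43 and 0.02). The part of tissue composition in the relation was not tested. Among 19937 genes, 1 gene besides Kcnip2 had an r with Kcnip1 at least as strong in either direction. Over all 10 arrays without subtraction of the genotype means, r was 0.15. The swings of Kcnip1 concerned are small, at most from 9.34 to 9.44 within Tg(Dyrk1a) and from 9.16 to 9.23 within wild type.

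**Figure D4:**
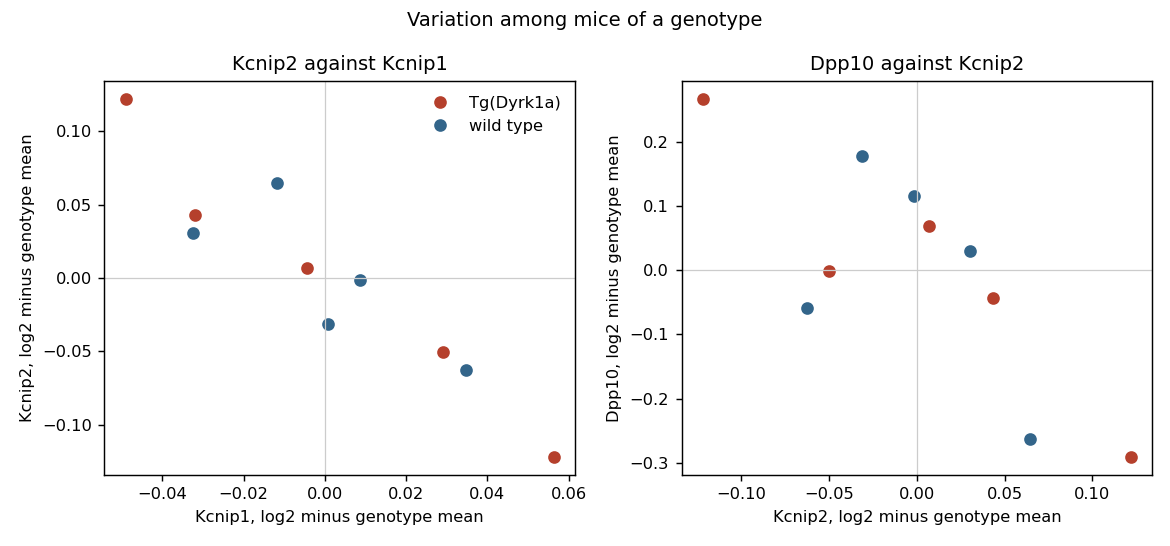
Left, Kcnip2 against Kcnip1, and right, Dpp10 against Kcnip2, both axes as log2 values minus the mean of the mouse's genotype, 1 point per mouse. The points of both genotypes fall along a descending line on the left (r = -0.94) and scatter more widely around one on the right (r = -0.79).

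This was 1 of 28 pairs, of which 12 had an r above 0 and 16 below 0, and the only one to pass after adjustment. The next in strength was Kcnip2 with Dpp10, at r = -0.79 and rho = -0.62 (exact permutation p = 0.0172 and 0.0806; 0.241 and 0.583 after adjustment), which fell to -0.46 without the 2 arrays farthest from the median of Kcnip2. Kcnip3 and Kcnd3 had r = 0.61 and rho = 0.54 (exact permutation p = 0.0860 and 0.137; 0.544 and 0.583 after adjustment). The pore genes Kcnd2 and Kcnd3 themselves had r = 0.09, and rho = 0.11 (exact permutation p = 0.808 and 0.761, before adjustment). The 8 genes thus did not vary together as 1 unit among mice.

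Marker scores varied with several of the genes, although 0 of 80 relations between a channel gene and a marker list passed after adjustment, with 12 at an unadjusted exact permutation p under 0.05 for r. Kcnip2 had r = 0.80 and rho = 0.74 with pyramidal cell markers (exact permutation p = 0.0174 and 0.0319; adjusted 0.232 and 0.364), and Kcnip1 had r = -0.67 and rho = -0.62 with the same score (exact permutation p = 0.0699 and 0.0912; adjusted 0.373 and 0.429). Their part in the opposition of Kcnip1 and Kcnip2 was not tested. Kcnip3 had r = 0.83 and rho = 0.83 with astrocyte markers (exact permutation p = 0.00951 and 0.0108; adjusted 0.196 and 0.324). Kcnd3 had r = 0.80 and rho = 0.70 with them (exact permutation p = 0.00903 and 0.0409; adjusted 0.196 and 0.364). Kcnd3, known from interneurons as well as granule cells, also had r = 0.79 and rho = 0.74 with the interneuron score (exact permutation p = 0.0138 and 0.0267; adjusted 0.220 and 0.356). Without the 2 arrays farthest from the median of the channel gene, these r were 0.69, -0.46, 0.73, 0.73 and 0.58 in the order given. With the dentate granule score Kcnd3 had the opposite sign, at r = -0.70 and rho = -0.69 (exact permutation p = 0.0308 and 0.0461, adjusted 0.245 and 0.369). That r was -0.60 without the 2 farthest arrays. By rank the strongest of the 80 relations was that of Dpp6 with endothelial markers, at rho = 0.88 and r = 0.77 (exact permutation p = 0.00222 and 0.0232; adjusted 0.178 and 0.240), with r = 0.88 without the 2 farthest arrays. Dpp10 had r = -0.81 and rho = -0.77 with microglia markers (exact permutation p = 0.00979 and 0.0181; adjusted 0.196 and 0.324), and r = -0.51 without the 2 farthest arrays.

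**Figure D5:**
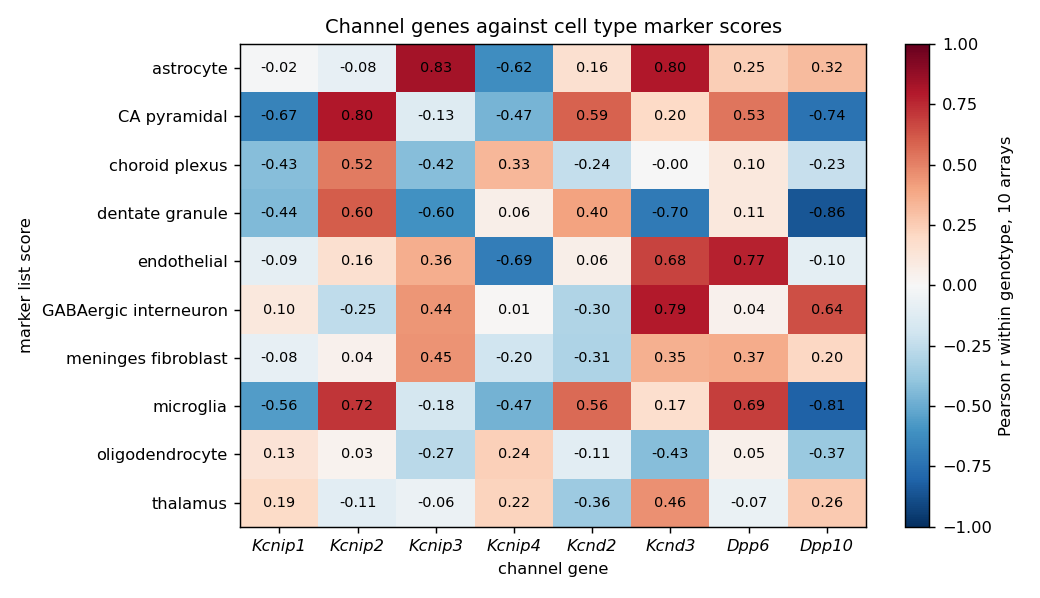
Pearson r within genotype over 10 arrays between each channel gene (columns) and the score of each marker list (rows), printed in each cell and shown by colour from -1 (blue) to 1 (red). Dpp10 with the dentate score, at -0.86, has the strongest r, and Kcnip1 has 0.10 with the interneuron score; none passed after adjustment over the 80 relations.

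The genes whose pattern across mice was most like that of a channel gene were picked from 19937 as those with the highest r, so their r is a description. For Kcnip1 they were Tex9, Mctp2 and Spata22, with r from 0.922 to 0.927. For Kcnip2 they were Dnajc3, Bsph1 and Mbd2 (0.953 to 0.956), and for Dpp10 they were Rims3, Tmem65 and Adcy8 (0.965 to 0.984). For Kcnip3 they were Tceal9, Hirip3 and Lypd6, for Kcnip4 Repin1, Dlx4 and Gm12474, for Kcnd2 Rpl26, Psmc1 and Nudt9, for Kcnd3 Acp2, Smarcd3 and Spon1, and for Dpp6 Epha4, Chm and Dlat, with r between 0.918 and 0.98. None of them was another of the 8 channel genes.

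The relatives and partners of the family were as little changed. Other Kv pore and beta subunits were measured for 25 of 27 genes, of which 14 had higher and 11 lower means in Tg(Dyrk1a), with a median log2 fold change of 0.0027 against 0.0010 over all transcript clusters. By limma 0 of the 25 passed, with 1 higher and 2 lower at an unadjusted p under 0.05. These were Kcns2, a silent modifier of Kv2 channels, at 0.12 ± 0.05 (SE), Kcnf1, another silent subunit, at -0.13 ± 0.05 (SE) and Kcna5, the Kv1.5 pore gene, at -0.11 ± 0.04 (SE), all at a limma adjusted p of 0.947. Kcna5 read only 5.62 in Tg(Dyrk1a) and 5.73 in wild-type mice, below all array medians (6.57 to 6.66). Kcnd1, the Kv4.1 gene and the remaining Kv4 pore subunit, was at -0.01 ± 0.05 (SE), and Kcna4, which also forms an A-type channel, at 0.06 ± 0.05 (SE). Neither reached an unadjusted limma p under 0.05.

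The neuronal calcium sensors, the protein family to which KChIPs belong, were at a median log2 fold change of -0.00036 over 8 of 9 genes, 4 higher and 4 lower, with 0 of them at an unadjusted limma p under 0.05. Hpca, the hippocalcin gene, stood at 13.23 in Tg(Dyrk1a) and 13.21 in wild-type mice (log2 fold change 0.02 ± 0.03 SE), Ncald at 0.03 ± 0.05 (SE) and Rcvrn at -0.02 ± 0.04 (SE). The enzymatic or structural relatives of the DPP proteins, Dpp4, Fap, Dpp8 and Dpp9, lay between -0.02 and 0.03, with 0 of 4 at an unadjusted limma p under 0.05. The Dpp10 difference of -0.23 (limma adjusted p = 0.947), which moved with the covariates and arrays used, thus had no counterpart of its size among them. Dpp4 read 5.70 in Tg(Dyrk1a) and 5.69 in wild-type mice, and Fap 4.83 and 4.85. These lie below all array medians (6.57 to 6.66), so a difference in Dpp4 or Fap could be missed.

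Regulators of Kv4 and partners of KChIP3 were measured for 11 of 16 genes, 4 with higher and 7 with lower means in Tg(Dyrk1a), with 0 passing limma after adjustment and 1 at an unadjusted p under 0.05. That gene was Pdyn, prodynorphin, the target of the repressor encoded by Kcnip3. It stood at 7.15 in Tg(Dyrk1a) and 6.96 in wild-type mice, which is a difference of 0.19 ± 0.06 (SE; limma adjusted p = 0.947), while Kcnip3 itself differed by -0.04. Whether the Pdyn and Kcnip3 differences are linked was not tested. Flna, an actin-binding protein that anchors Kv4.2, was at 0.17 ± 0.09 (SE) and Dlg1, a synaptic scaffold, at -0.09 ± 0.06 (SE). Camk2a, a kinase that phosphorylates Kv4.2, was at -0.0011 ± 0.03 (SE).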

How the data were processed

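Total RNA of whole hippocampus was hybridised to Affymetrix mouse gene arrays. The authors deposited 1 log2 value per transcript cluster and array, made by RMA (background correction, quantile normalization and summary over probes) per the submitters' processing notes, which also name limma and mm10; which arrays were normalized together is not given in the sources used here. Of 35556 rows, 23410 are annotated, 21789 of them with 1 symbol and 1621 with several, and the last were never used to name a gene. The value table was used as deposited. Tg(Dyrk1a) was compared with wild type in R 4.3.3 with limma 3.58.1 (a linear model with moderated variances by lmFit and eBayes, Benjamini-Hochberg over the 23410 rows, threshold 0.05). The study's own test, FCROS, was rewritten as a rank method over 25 pairs of arrays with 25% trimmed at each end and f-values outside 0.025 to 0.975 as calls. Relations among mice used values minus the genotype mean and exact permutation within genotype (14400 arrangements, two-sided). The fit was tested on simulated data. The number of arrays limits the precision.

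The channel genes, gene lists and marker lists were chosen with earlier results of these data known. Besides the 8 channel genes, the text names the genes of a related list past the threshold or, failing that, those with the 3 smallest p. It also names the 3 genes most like each channel gene. Kcnd1, Kcna4, Camk2a, Dpp8, Dpp4, Fap, C1ql2, Slc17a8, Gad2, Gad1, Dlx1, Lhx6, Pvalb and Calb2 were named beyond or beside this rule after their values were seen. Each mouse is a separate biological replicate.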

Additional observations from a re-analysis of the deposited data

Results flagged for a closer look

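In the dimmer Dpp6 transcript cluster (10520351), Tg(Dyrk1a) replicate 4 stood at 5.85, apart from the other Tg(Dyrk1a) arrays at 5.57 to 5.62. Its gap to the nearest array was 0.835 of the group's whole range, above the Dixon limit of 0.71 for 5 samples. Of 18 groups of 5 arrays examined this was the only one, and chance singles out about 5% of such groups.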

How the results depend on the processing

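Kcnip2, Kcnip4, Kcnip1 and Dpp10 kept their direction in 21 refits each, of which 4 leave the estimate as it is by construction. The number of channel genes called was 0 in the main fit. With array weights it was 1, Kcnip1 (0.21), where 5 of 23410 transcript clusters were called. The rank method picked 2, Kcnip1 (0.19) and Dpp10 (-0.23), beside 4.83% of all transcript clusters. Its f-values are scaled on the mean ranks of all transcript clusters, so its picks are not comparable with calls by limma adjusted p. Signs turned for Kcnip3 on the 7 arrays low in choroid plexus markers (0.01488) and with the dentate score (0.0239), for Kcnd2 with median centring (0.00459) and with the interneuron score (0.0491), for Kcnd3 with quantile normalization (-0.00434) and with the interneuron score (-0.123), and for Dpp6 with marker scores as covariates (-0.00306). The cause was not tested. Leaving out 1 array at a time gave 0.176 to 0.202 for Kcnip1, 0.0335 to 0.0945 for Kcnip2, -0.0607 to -0.00397 for Kcnip3, 0.00937 to 0.0469 for Kcnip4, -0.0449 to 0.0220 for Kcnd2, -0.0237 to 0.0370 for Kcnd3, 0.00900 to 0.0431 for Dpp6 and -0.298 to -0.159 for Dpp10. No label pairs the mice by replicate number. Deviations of same-numbered arrays correlated at -0.285 to 0.276, which cannot settle whether such mice were paired. With the replicate number as a block the fold changes are identical by design, 0.190 for Kcnip1 (limma adjusted p = 0.501). No call among the 8 genes changed. The block lowered the SE for some genes, such as Dpp10 from 0.098 to 0.070 (limma adjusted p = 0.946). It raised the SE for others, such as Kcnip1 from 0.031 to 0.032.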
